A study of Homo sapiens with 38 samples.

Results

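Expression of 5 genes of interleukin 1 signalling was examined in A549 cells, a human lung adenocarcinoma line used as a model of alveolar epithelium: the cytokines IL1A and IL1B, the coreceptor IL1RAP, the inhibitory signalling protein IRAK3 and the kinase adaptor TAB3. A gene was included through every probe set whose only gene symbol in the platform annotation was one of these names. Each gene had 1 probe set, which gave 5 of the 14488 probe sets in the table and 5 of the 11893 genes that the annotation names. The 38 arrays came from ORMDL3 knockdown cells, which received a pool of siRNAs against ORMDL3, and from control cells, with 19 arrays in each arm. The labels call the other arm control and give no transfection for it. The knockdown cells had 48 h of silencing, and after 24 h without serum the cells received 1 ng/ml IL1B for 2, 4, 8 or 10 h, or were taken untreated at 0 h. Groups held 4 arrays each, except knockdown 0 h with replicates 1, 2 and 4 and control 8 h with replicates 1, 2 and 3. No label states that the replicates of a group are separate cultures, and p-values measure only the spread among these arrays, possibly a technical one.

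IL1A and IL1B bind the same receptor, in which the ligand-binding chain IL1R1 pairs with the coreceptor IL1RAP. The paired receptor recruits MYD88 and the IRAK kinases, then TRAF6, whose ubiquitin chains are bound by TAB2 and TAB3 to activate the kinase TAK1 (gene MAP3K7) and, through it, NF-kB and MAP kinases. IRAK3 lacks kinase activity and restrains this route, and the genes of both cytokines are textbook targets of it, so that added IL1B can raise the transcripts of its own family. The arrays measured transcripts and not the IL1B protein that was added to the medium. IL1RAP transcripts can encode a membrane-bound or a soluble protein, which 1 probe set does not tell apart.

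The 250 bases before the RefSeq start sites of IL1A and IL1B (assembly GRCh38.p14) are shown because these were the members with the largest change under IL1B, and because the motifs found in the IL1A and IL1B windows differed. Both windows lie on the minus strand of chromosome 2, at chr2:112784494-112784743 for the first listed start of IL1A and at chr2:112836780-112837029 for IL1B. Capitals mark motif matches.
IL1A: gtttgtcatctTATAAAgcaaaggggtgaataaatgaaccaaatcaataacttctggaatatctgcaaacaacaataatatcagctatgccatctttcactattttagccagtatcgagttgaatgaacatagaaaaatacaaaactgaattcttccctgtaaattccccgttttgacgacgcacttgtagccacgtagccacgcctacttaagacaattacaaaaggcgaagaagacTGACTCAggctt
IL1B: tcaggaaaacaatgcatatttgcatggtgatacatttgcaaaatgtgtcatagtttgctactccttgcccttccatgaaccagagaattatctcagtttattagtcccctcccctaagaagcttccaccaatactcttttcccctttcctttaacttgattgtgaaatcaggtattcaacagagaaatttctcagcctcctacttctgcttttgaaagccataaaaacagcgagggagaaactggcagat
Windows of all 5 members were found in the table. The motifs searched, on both strands and without regard to overlap, were TGANTCA for AP-1, TATAAA for a TATA box and GGGRNNYYCC for an NF-kB site. In these, R is A or G, Y is C or T and N is any base. The IL1A window above held 1 AP-1 match, TGACTCA, beginning 12 bases before the start, and 1 TATAAA match beginning 239 bases before it. The window of the second listed IL1A start held the AP-1 matches TGACTCA and TGAGTCA, beginning 105 and 55 bases before that start. The windows overlap, and this TGACTCA is the same site as that in the window shown. None of the motifs matched in the windows of IL1B, IL1RAP, IRAK3 and TAB3. Among 35114 promoters of this length, 6.57% held the AP-1 motif, 10.7% the TATA box and 9.96% the NF-kB motif. A match is a string of letters in this window and says nothing of a factor's binding.

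Values are the deposited log2 expression levels, so that a difference of 1 is a doubling. ORMDL3, the targeted gene, lay between 5.00 and 5.57 on knockdown arrays and between 6.78 and 7.77 on control arrays, with no overlap. Its mean difference over 5 hours was -1.99 ± 0.05 (SE), or 25.1% of the control level (limma adjusted p = 4.62e-25). Array medians lay between 8.02 and 8.19, and replicate arrays correlated at 0.987 to 0.996 across probe sets. Of the epithelial markers, 6 of 6 were measured, with array means of 10.32 to 11.09 in knockdown cells and 10.13 to 11.01 in control cells. All 6 were lower under IL1B in both arms. Over the 5 hours KRT19 was higher in knockdown cells (0.60 ± 0.04, adjusted p = 1.15e-12) and EPCAM was lower (-0.19 ± 0.06, adjusted p = 0.034), and their part in the results on the members was not tested. Of 10 leukocyte markers 2 (CD14 and ITGAM) were measured, with array means of 6.78 to 7.37 and 6.78 to 7.36 in knockdown and control cells. As a mean of 4 hours ITGAM was higher under IL1B by 0.30 ± 0.07 in knockdown cells and by 0.61 ± 0.07 in control cells. CD14 went the other way and was not called in either arm. The median effect of these 2 markers was 0.04 in knockdown cells and 0.24 in control cells. At 0 h 1 of these 2 markers was called higher in knockdown cells, as were 2.33% of all probe sets, and neither was called between the arms over the 5 hours. Of 8 fibroblast and endothelial markers 2 (COL1A1 and CDH5) were measured, with array means of 5.84 to 6.90 in knockdown cells and 5.79 to 6.79 in control cells. CDH5, the endothelial cadherin, was higher under IL1B at each of the 4 hours, with a mean of 1.31 ± 0.10 in knockdown cells (adjusted p = 1.98e-12) and 1.13 ± 0.09 in control cells (adjusted p = 3.26e-12), and COL1A1 was not called. The part of ITGAM and CDH5 in the IL1B effects on the members was not tested. In bulk RNA, more or fewer cells of a type cannot be told apart from more or less RNA per cell.

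The first question was how IL1B changed the 5 transcripts within each arm. Averaged over 2, 4, 8 and 10 h, 4 of 5 members (IL1A, IL1B, IRAK3 and TAB3) rose in knockdown cells, where 12.1% of all probe sets were called higher, and 5 of 5 rose in control cells, where 18.1% were. A probe set is called at an adjusted p under 0.05. At single hours in knockdown cells the same 4 members were called higher at 2, 4, 8 and 10 h, against 9.57%, 12.6%, 11.2% and 11.6% of all probe sets. In control cells 4 members were called at 2 h and at 8 h (all but IL1RAP) and all 5 at 4 h and at 10 h, against 10.3%, 16.4%, 17% and 17.7% of probe sets. The hours of a given arm share its 0 h arrays, and no untreated arrays stood at later hours, so IL1B and further time in culture cannot be told apart.

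IL1A, the cytokine that is active in its precursor form and also acts as an alarm signal from damaged cells, had the largest response of the members. At 0 h it read 5.02, 4.85 and 4.62 in knockdown cells and 4.62, 4.85, 4.46 and 4.79 in control cells. At 2 h it read 11.54, 11.33, 11.22 and 11.08 in knockdown cells and 11.33, 11.40, 11.13 and 11.12 in control cells. Every array at 2 h stood far above every array at 0 h, and the arms overlapped at both hours. The increase at 2 h was 6.46 ± 0.19 in knockdown cells, or 88.2-fold, and 6.56 ± 0.17 in control cells, or 94.6-fold, each the 2nd largest of all 14488 probe sets in its arm. At 0 h the IL1A level stood at the 0.511 percentile of all probe sets in knockdown cells and at the 0.518 percentile in control cells, where array levels can be compressed, so such folds may be understated.

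IL1A peaked at 2 h and had dropped by 4 h in both arms. The 4 h arrays read 10.43, 10.23, 10.16 and 10.39 in knockdown cells and 10.57, 10.82, 10.57 and 10.52 in control cells. All 4 knockdown arrays lay below all 4 control arrays at that hour, as for 2.68% of all probe sets. The limma difference of -0.32 ± 0.17 was not called (adjusted p = 0.504). From 2 to 4 h IL1A fell by 0.99 ± 0.17 in knockdown cells (adjusted p = 0.000104) and by 0.63 ± 0.17 in control cells (adjusted p = 0.0129). The signed step in knockdown cells minus that in control cells was -0.36 ± 0.25 (adjusted p = 0.983), a larger fall in knockdown cells that did not pass the test. Among all probe sets, 6.81% were called lower at 4 h than at 2 h in knockdown cells and 6.85% in control cells.

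At 8 h IL1A read 8.72, 8.60, 7.98 and 8.11 in knockdown cells and 8.37, 8.71 and 8.38 in control cells. At 10 h it read 8.85, 8.71, 8.52 and 8.17 in knockdown cells and 9.09, 8.99, 8.59 and 7.99 in control cells. The arms overlapped at both hours and all arrays remained above every 0 h array. The level at 10 h was 15.1% of that at 2 h in knockdown cells and 16.8% in control cells, on the linear scale. It was still 13.3-fold above 0 h in knockdown cells and 15.8-fold in control cells.

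IL1B, the cytokine whose precursor is cut by caspase-1 before release, rose less than IL1A from a similar position near the bottom of the array range. At 0 h it read 5.05, 4.53 and 4.65 in knockdown cells and 4.73, 5.04, 4.95 and 4.81 in control cells. At 2 h it read 9.85, 9.68, 9.40 and 9.30 in knockdown cells and 9.85, 9.69, 9.44 and 9.22 in control cells. The arms lay over each other at 2 h. The increase from 0 h was 4.81 ± 0.16 in knockdown cells, or 28.1-fold, and 4.67 ± 0.15 in control cells, or 25.5-fold.

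The limma difference of IL1B between the arms at 4 h was -0.55 ± 0.15 and was not called (adjusted p = 0.0582). IL1B then read 9.79, 9.56, 9.22 and 9.55 in knockdown cells and 10.06, 10.11, 10.10 and 10.02 in control cells. The groups did not overlap, with knockdown below control, as for 2.68% of all probe sets. From 2 to 4 h IL1B differed by -0.03 ± 0.15 in knockdown cells (adjusted p = 0.929) and rose by 0.52 ± 0.15 in control cells (adjusted p = 0.0172), where 6.54% of probe sets were called higher. Leaving out control 2 h replicate 3 took the control step to 0.49 (adjusted p = 0.0537), and leaving out control 2 h replicate 4 took it to 0.41 (adjusted p = 0.0929). Without all arrays numbered 4 it was 0.43 (adjusted p = 0.115). The difference between these 2 steps was -0.55 ± 0.22, with an unadjusted p of 0.0152 and an adjusted p of 0.983, and 0% of all probe sets were called in that comparison. Control cells thus had their highest IL1B mean at 4 h, 10.07 ± 0.04 (SD, n = 4), whereas the knockdown means at 2 and 4 h, 9.56 ± 0.25 and 9.53 ± 0.24 (SD, n = 4 each), were within each other's spread.

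At 8 h IL1B read 7.85, 7.62, 7.17 and 7.60 in knockdown cells and 8.32, 8.44 and 8.05 in control cells. At 10 h it read 7.91, 7.84, 7.64 and 7.43 in knockdown cells and 8.39, 8.41, 8.14 and 7.89 in control cells. All knockdown arrays were below all control arrays at 8 h, as for 8.39% of all probe sets. At 10 h control replicate 4 fell within the knockdown range. From 4 to 8 h IL1B fell by 1.97 ± 0.15 in knockdown cells and by 1.81 ± 0.16 in control cells. IL1A fell by 1.95 ± 0.17 and by 2.13 ± 0.19 over the same step, in knockdown and control cells, and IRAK3 fell by less (given below), which made 3 members called lower in each arm against 12.7% of probe sets in knockdown cells and 10.6% in control cells.

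**Figure D1:**
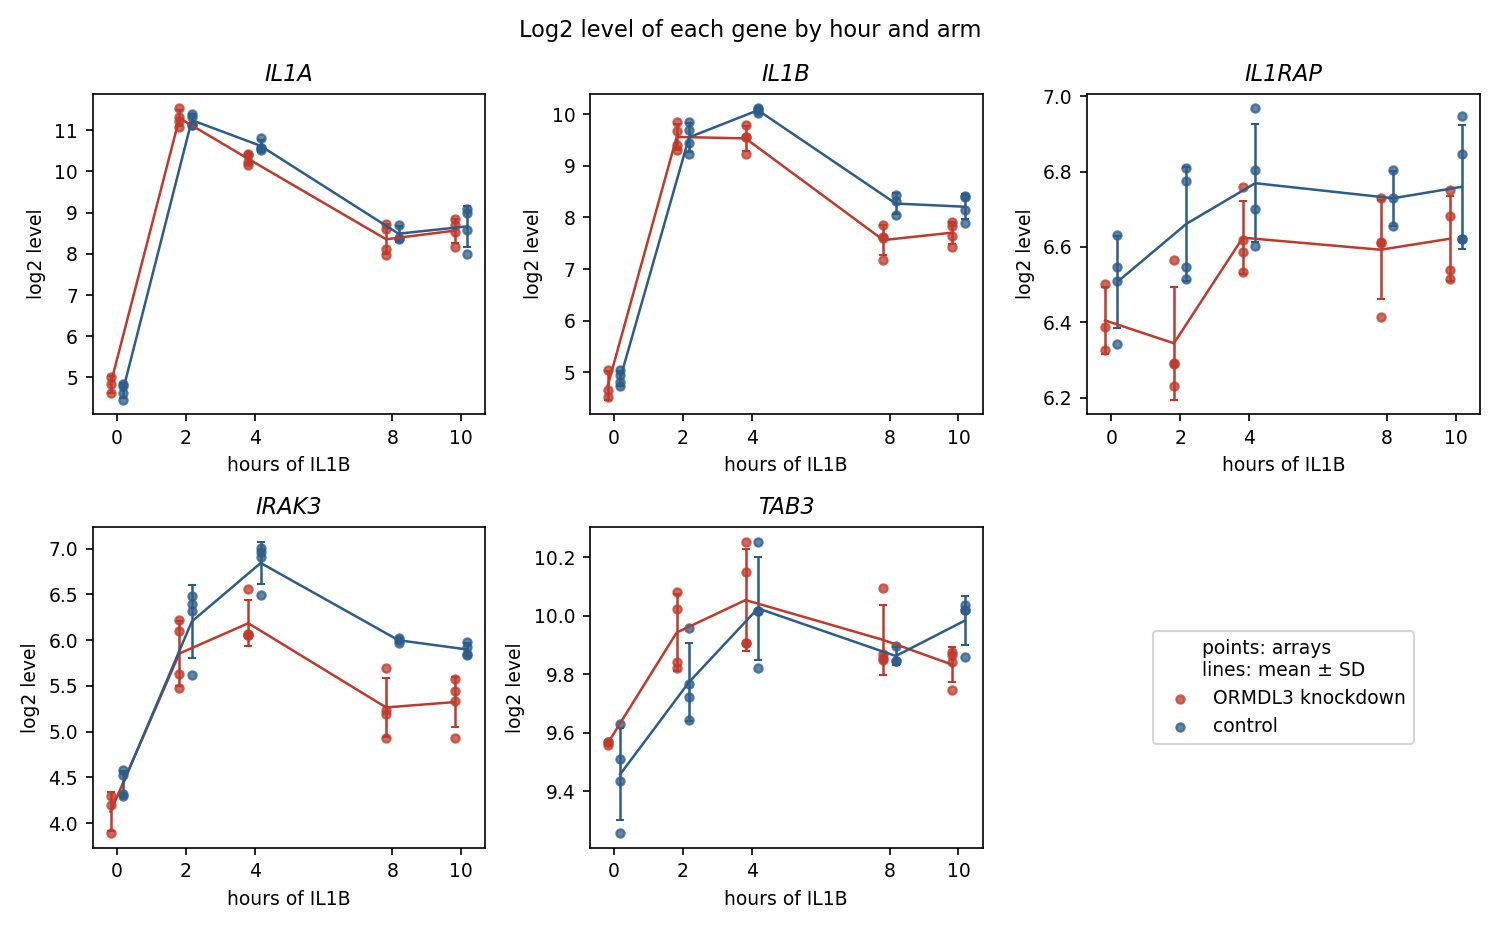
Log2 expression level of each member on every array (points) and group means (lines, with bars for the SD) against hours of IL1B, for ORMDL3 knockdown and control cells. IL1A peaks at 2 h in both arms, IL1B control arrays stand above knockdown arrays at 4 and 8 h, and the vertical scale differs between panels.

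IL1RAP, the coreceptor that all signalling through IL1R1 needs, moved little. Its 38 arrays lay between 6.23 and 6.97, and its group means lay between the 19.6 and the 27.4 percentile of all probe sets. At 0 h it read 6.50, 6.39 and 6.33 in knockdown cells and 6.51, 6.34, 6.55 and 6.63 in control cells. At 2 h it read 6.29, 6.23, 6.29 and 6.57 in knockdown cells and 6.77, 6.55, 6.81 and 6.52 in control cells. Only knockdown replicate 4 reached into the control range at 2 h. At 4 h it read 6.53, 6.62, 6.59 and 6.76 in knockdown cells and 6.70, 6.80, 6.60 and 6.97 in control cells. At 8 h the knockdown arrays read 6.61, 6.73, 6.42 and 6.61 and the control arrays 6.80, 6.66 and 6.73. At 10 h the knockdown arrays read 6.68, 6.54, 6.52 and 6.75 and the control arrays 6.95, 6.62, 6.62 and 6.85. In each of these hours the arms overlapped, and so did every pair of neighbouring groups when the 10 were put in order of their means, with control 4 h highest and knockdown 2 h lowest. In knockdown cells IL1RAP rose from 2 h to 4 h by 0.28 ± 0.09 (limma adjusted p = 0.0365) and to 10 h by 0.28 ± 0.09 (0.0195). Of all probe sets, 7.82% and 18.2% were called higher in these steps. The control steps, 0.11 ± 0.09 and 0.10 ± 0.09, were not called. Neither were the differences between the arms (adjusted p = 0.983 and 0.567). These steps were not refitted with other settings.

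The IL1B effect on IL1RAP, as a mean of 4 hours, was 0.14 ± 0.08 in knockdown cells (adjusted p = 0.209) and 0.22 ± 0.07 in control cells (adjusted p = 0.0156). The control call rested on control 0 h replicate 2, without which the effect was 0.17 (adjusted p = 0.112). At single hours control cells were called at 4 h (0.26 ± 0.09, adjusted p = 0.0239) and 10 h (0.25 ± 0.09, adjusted p = 0.032). The 4 h call failed when control 0 h replicate 2 was left out (adjusted p = 0.103), or control 4 h replicate 2 (0.0548) or 4 (0.114). The 10 h call failed when control 0 h replicate 1 was left out (adjusted p = 0.0559), or 2 (0.13) or control 10 h replicate 1 (0.143) or 4 (0.0936). In knockdown cells the 4 h effect of 0.22 passed with quantile normalization (adjusted p = 0.042), with array medians subtracted (0.0355) and with array weights (0.0406). The 8 h effect there passed with the same 3 settings (adjusted p = 0.0494, 0.0446 and 0.0454), and the 10 h effect with array weights (0.047). The control 8 h effect of 0.22 (adjusted p = 0.0843) passed with array weights (0.0398), with a random replicate block (0.0404) and without all arrays numbered 4 (0.0327). Control calls at 4 h and 10 h were lost in fits of only the 2 groups (0.0609 and 0.0663), and that at 4 h without all arrays numbered 4 (0.0528). A passed test in control cells and a missed one in knockdown cells do not show a difference, and the difference between the arms' mean responses was -0.08 ± 0.11 (adjusted p = 0.831).

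IRAK3, the member of the IRAK family that lacks kinase activity, rose in both arms from a level at the 0.0897 percentile of all probe sets in knockdown cells and the 0.221 percentile in control cells at 0 h. At 0 h it read 4.19, 4.29 and 3.89 in knockdown cells and 4.52, 4.30, 4.58 and 4.32 in control cells, and the highest knockdown array lay just under the lowest control array. Knockdown lay below control without overlap at 0 h for 5.56% of all probe sets. At 2 h it read 6.10, 5.48, 6.22 and 5.63 in knockdown cells and 6.32, 6.49, 6.39 and 5.62 in control cells. Control replicate 4 was the low array of the control group at 2 h. The increase from 0 to 2 h was 1.73 ± 0.19 in knockdown cells, or 3.32-fold, and 1.78 ± 0.18 in control cells, or 3.42-fold.

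By group means, IRAK3 stood highest at 4 h in both arms. The 4 h arrays read 6.05, 6.06, 6.57 and 6.07 in knockdown cells and 6.91, 6.96, 7.01 and 6.50 in control cells. Knockdown replicate 3 was the single knockdown array that reached the control range. The effect against 0 h was 2.06 ± 0.19, or 4.17-fold, in knockdown cells and 2.42 ± 0.18, or 5.33-fold, in control cells. The step from 2 to 4 h was 0.33 ± 0.18 in knockdown cells (adjusted p = 0.224) and 0.64 ± 0.18 in control cells (adjusted p = 0.011). Without control 2 h replicate 4 the control step was 0.44 (adjusted p = 0.0887), and in a fit of only the 2 groups its adjusted p was 0.0609. As for IL1B, the difference between the steps was not called (-0.31 ± 0.25, adjusted p = 0.983).

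At 8 h IRAK3 read 4.93, 5.19, 5.70 and 5.24 in knockdown cells and 6.00, 5.97 and 6.03 in control cells. At 10 h it read 5.45, 5.34, 5.58 and 4.94 in knockdown cells and 5.93, 5.98, 5.85 and 5.83 in control cells. At both hours every knockdown array was below every control array, as for 8.39% of all probe sets at 8 h and 4.02% at 10 h. The knockdown arrays were the more scattered. From 4 to 8 h IRAK3 fell by 0.92 ± 0.18 in knockdown cells (adjusted p = 0.000133) and by 0.84 ± 0.19 in control cells (adjusted p = 0.00107). From 2 to 10 h it fell by 0.53 ± 0.18 in knockdown cells (adjusted p = 0.0184), and the control difference was -0.31 ± 0.18 (adjusted p = 0.196). The knockdown call was lost without knockdown 2 h replicate 1 (adjusted p = 0.0716) or 3 (0.0905) or knockdown 10 h replicate 4 (0.0927), and control cells were called without control 2 h replicate 4 (-0.50, adjusted p = 0.0213). IL1A and IL1B also fell over that span, so 3 members were called lower in knockdown cells and 2 in control cells, against 15.1% of probe sets in each arm.

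TAB3, the adaptor that carries TAK1 to ubiquitin chains, had group means between the 74.5 and the 82.7 percentile of all probe sets, and it rose by less than 1 log2 unit at every hour. At 0 h it read 9.56, 9.57 and 9.57 in knockdown cells and 9.26, 9.51, 9.43 and 9.63 in control cells. At 2 h it read 10.08, 9.82, 10.02 and 9.84 in knockdown cells and 9.64, 9.72, 9.77 and 9.96 in control cells. All treated arrays at 2 h exceeded all 0 h arrays of their arm. At 4 h TAB3 read 9.91, 9.91, 10.15 and 10.25 in knockdown cells and 9.82, 10.01, 10.01 and 10.25 in control cells. At 8 h it read 9.85, 9.85, 9.87 and 10.09 in knockdown cells and 9.85, 9.84 and 9.90 in control cells. At 10 h it read 9.75, 9.87, 9.88 and 9.84 in knockdown cells and 10.04, 9.86, 10.02 and 10.02 in control cells. The arms overlapped at each of the 5 hours.

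The mean IL1B effect on TAB3 was 0.37 ± 0.08 in knockdown cells (adjusted p = 0.000386) and 0.45 ± 0.07 in control cells (adjusted p = 3.25e-06), the smallest of the called effects after that on IL1RAP. It was called at each hour in both arms, with 0.49 ± 0.10 in knockdown cells and 0.57 ± 0.09 in control cells at 4 h. The knockdown call at 10 h (0.27 ± 0.10, adjusted p = 0.0366) was lost without any one of knockdown 0 h replicates 1, 2 or 4 or knockdown 10 h replicates 2, 3 or 4, with adjusted p-values of 0.0654 to 0.0931. The control call at 2 h (0.32 ± 0.09, adjusted p = 0.00881) did not pass without control 0 h replicate 1 (0.25, adjusted p = 0.0591) or control 2 h replicate 4 (0.25, adjusted p = 0.0521). When the 10 groups were put in order of their means, knockdown 4 h was highest and control 0 h lowest, and only knockdown 0 h and control 2 h, neighbours in that order, did not overlap.

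**Figure D2:**
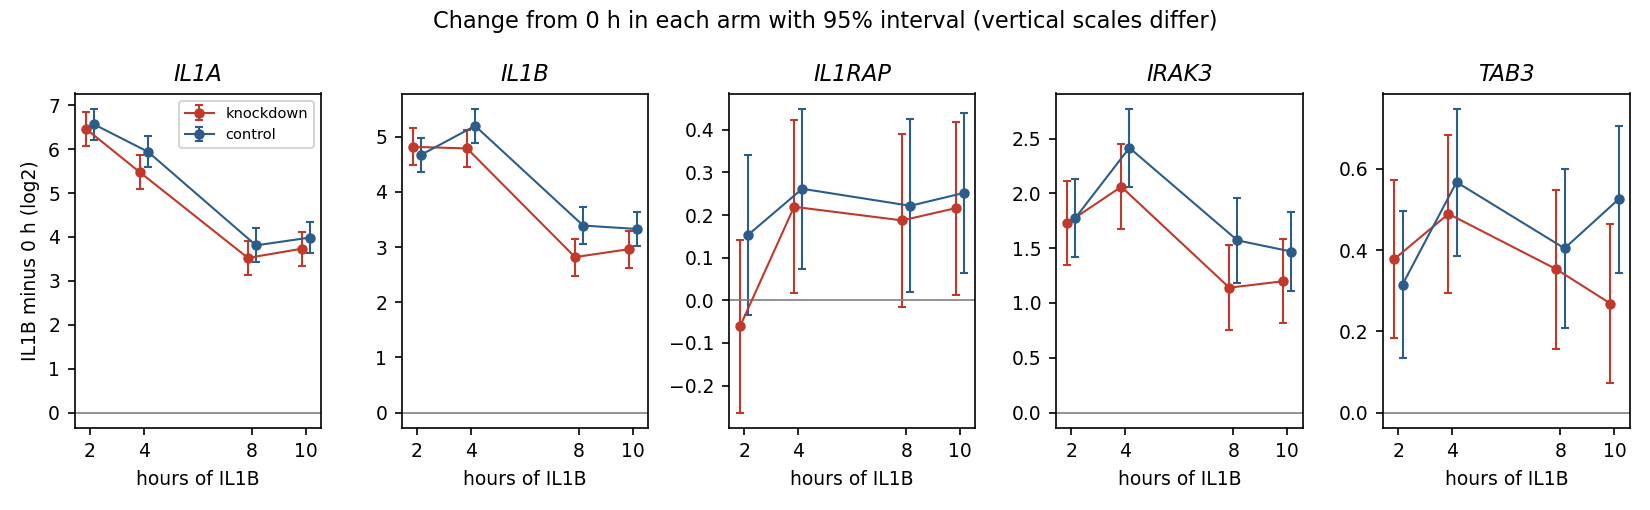
IL1B effect on each member as the log2 difference from 0 h at 2, 4, 8 and 10 h, in ORMDL3 knockdown and control cells, with bars for the 95% interval from limma. IL1A reached 6.46 in knockdown cells and 6.56 in control cells at 2 h, and the vertical scale differs between panels.

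The next question was how the knockdown changed the 5 transcripts at matched hours. Averaged over the 5 hours, 3 of 5 members (IL1B, IL1RAP and IRAK3) were lower in knockdown cells and none was higher, where 12.1% of all probe sets were called lower. IRAK3 was lower by the most, at -0.52 ± 0.08 (adjusted p = 1.01e-05), and its group means were below control at 5 of 5 hours. Its knockdown levels at 0, 8 and 10 h stood at the 0.0897, 1.66 and 1.80 percentile of all probe sets. The control levels at those hours stood at the 0.221, 14.1 and 12.2 percentile. Whether levels this low stood above background is not known. IL1B was lower by -0.38 ± 0.07 (adjusted p = 0.000147), and at 2 h its arms differed by 0.01. IL1RAP was lower by -0.17 ± 0.04 (adjusted p = 0.00391) and was below control at 5 of 5 hours by its group means. These 3 calls were kept without any single array, with differences of -0.56 to -0.50 for IRAK3, -0.41 to -0.35 for IL1B and -0.18 to -0.15 for IL1RAP.

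IL1A and TAB3 were not called over the 5 hours. The difference for IL1A was -0.07 ± 0.08 (adjusted p = 0.583), with a 95% interval of -0.24 to 0.09. The difference for TAB3 was 0.04 ± 0.04 (adjusted p = 0.514), with an interval of -0.04 to 0.13. The 2 cytokines therefore stood on different sides of the threshold, and the difference between them was not tested.

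At single hours, the knockdown called lower none of the members at 0 h (0.987% of probe sets), IL1RAP at 2 h (3.07%), IRAK3 at 4 h (0.732%), IL1B and IRAK3 at 8 h (1.26%) and none at 10 h (1.19%). At an unadjusted p under 0.05, limma counted 0, 1, 2, 2 and 2 members at 0, 2, 4, 8 and 10 h, where 15%, 22.7%, 11.9%, 15.8% and 13.6% of all probe sets passed. Groups that did not overlap, with knockdown below control, were IRAK3 at 0 h (5.56% of probe sets), none at 2 h (5.78%), IL1A and IL1B at 4 h (2.68%), IL1B and IRAK3 at 8 h (8.39%) and IRAK3 at 10 h (4.02%). Each of these 4 single-hour calls was lost on leaving out some single array, and in fits of only the 2 groups compared the adjusted p was 0.117 for IL1RAP at 2 h, 0.104 for IRAK3 at 4 h, 0.0815 for IRAK3 at 8 h and 0.0879 for IL1B at 8 h.

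For IL1B the difference at 8 h was -0.71 ± 0.16 (adjusted p = 0.0138), and it was lost without knockdown 8 h replicate 3 (-0.58, adjusted p = 0.0599), control 8 h replicate 1 (-0.68, 0.0653) or control 8 h replicate 2 (-0.62, 0.0804). The difference at 4 h was -0.55 ± 0.15 (adjusted p = 0.0582). It passed without knockdown 0 h replicate 1 (adjusted p = 0.046), knockdown 2 h replicate 1 (0.0492), knockdown 4 h replicate 1 (0.0387), knockdown 8 h replicate 3 (0.0396), control 2 h replicate 4 (0.0438) or control 10 h replicate 4 (0.0481). At 10 h IL1B differed by -0.50 ± 0.15 (adjusted p = 0.0768), and it passed without control 10 h replicate 4 (-0.61, adjusted p = 0.0461). With the replicate number as a block, the 4 h and 10 h differences passed (adjusted p = 0.00311 and 0.00742). The IL1B values were thus lower by a like amount from 4 h on, while the calls fell on either side of the threshold.

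For IRAK3 the difference was -0.66 ± 0.18 at 4 h (adjusted p = 0.0397) and -0.73 ± 0.19 at 8 h (adjusted p = 0.0272). The 4 h call was lost without knockdown 4 h replicate 1, 2 or 4 or control 4 h replicate 1, 2 or 3, with adjusted p-values of 0.102 to 0.146. The 8 h call was lost without knockdown 8 h replicate 1, 2 or 4 or any 1 of control 8 h replicates 1, 2 and 3, with adjusted p-values of 0.058 to 0.103. At 2 h the difference of -0.35 ± 0.18 (adjusted p = 0.23) passed without control 2 h replicate 4 (-0.55, adjusted p = 0.0354), and at 10 h that of -0.57 ± 0.18 (adjusted p = 0.0776) passed without the same array (0.0419). With the replicate number as a block, the IRAK3 difference at 10 h passed (adjusted p = 0.0089). For IL1RAP the 2 h difference of -0.32 ± 0.09 (adjusted p = 0.0356) was lost without knockdown 2 h replicate 1, 2 or 3 or control 2 h replicate 1 or 3, with adjusted p-values of 0.0747 to 0.143.

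**Figure D3:**
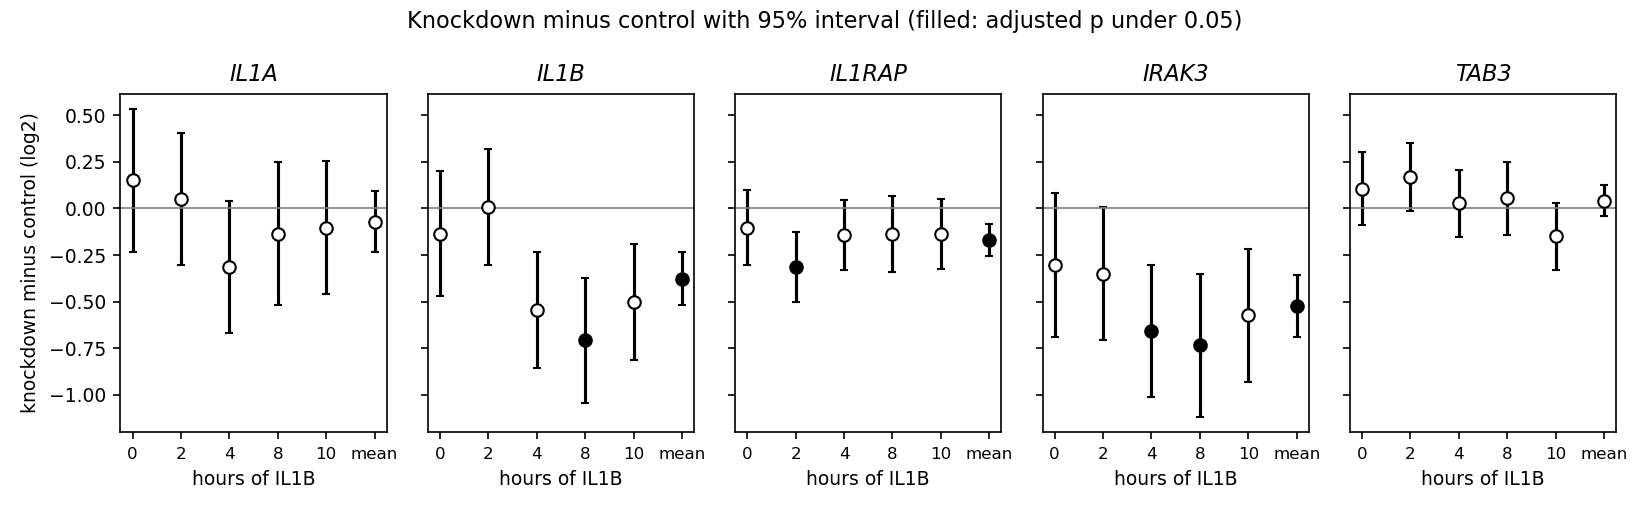
Log2 difference of ORMDL3 knockdown minus control for each member at 0, 2, 4, 8 and 10 h of IL1B and as the mean of 5 hours, with bars for the 95% interval from limma and filled points for an adjusted p under 0.05. IL1B, IL1RAP and IRAK3 lie below 0 in the mean of 5 hours, while the intervals of IL1A and TAB3 include 0.

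The third question was whether the response to IL1B itself differed between the arms. Of 25 response differences (5 members at 4 hours and as a mean), limma called 0, and 1 had an unadjusted p under 0.05. That one was IL1B at 8 h, with a response in knockdown cells minus that in control cells of -0.57 ± 0.23 (unadjusted p = 0.0198, adjusted p = 0.373), at an hour when 10.6% of all probe sets had an unadjusted p under 0.05. In the mean of 4 hours 0.235% of all probe sets were called. The mean differences were -0.28 ± 0.21 for IL1A, -0.30 ± 0.18 for IL1B, -0.08 ± 0.11 for IL1RAP, -0.28 ± 0.21 for IRAK3 and -0.08 ± 0.11 for TAB3. Leaving out single 0 h arrays moved these means in both directions. Without knockdown 0 h replicate 1 they were -0.18 for IL1A, -0.15 for IL1B and -0.034 for IL1RAP. Without knockdown 0 h replicate 2 they were -0.41 for IL1B and -0.19 for IRAK3. Without knockdown 0 h replicate 4 they were -0.38 for IL1A and -0.39 for IRAK3. Without control 0 h replicate 2 the mean was -0.027 for IL1RAP, and without control 0 h replicate 1 it was -0.014 for TAB3. Without control 0 h replicate 4 it was -0.12 for IL1RAP and -0.14 for TAB3. The 95% intervals reached down to -0.70 for IL1A and IRAK3 and to -0.67 for IL1B, so weaker responses of that size were not distinguishable from none with these arrays.

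Other genes of the pathway were taken from 5 lists of ligands, receptors, signalling complexes and processing enzymes, in which 29 of 50 genes beside the members had a probe set. Under IL1B, 6 of the 29 rose and 3 fell in knockdown cells, and 9 rose and 7 fell in control cells, as a mean of 4 hours. Of all probe sets, 12.1% were called higher and 19% lower in knockdown cells, and 18.1% higher and 21.2% lower in control cells. The median effect over the 29 was 0.04 in knockdown cells and 0.05 in control cells, beside -0.04 and -0.02 over all probe sets. IRAK2, a kinase of the receptor complex, rose by 2.32 ± 0.06 in knockdown cells (adjusted p = 2.88e-26) and by 2.45 ± 0.05 in control cells (adjusted p = 1.19e-28). IL18R1, the receptor chain for IL18, rose by 0.85 ± 0.11 and by 1.27 ± 0.09 in knockdown and control cells. TAB2, the closest relative of TAB3, rose by 0.42 ± 0.08 and by 0.42 ± 0.07. CASP4, an inflammatory caspase, rose by 0.70 ± 0.09 and by 0.66 ± 0.08, while PYCARD, the inflammasome adaptor, fell by 0.24 ± 0.07 and by 0.29 ± 0.07 in knockdown and control cells.

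Between the arms, 2 of these 29 genes were higher in knockdown cells and 5 were lower as a mean of 5 hours, where 10.9% of all probe sets were called higher and 12.1% lower. The median difference was -0.01, as over all probe sets. The 2 higher genes were PYCARD (0.18 ± 0.04, adjusted p = 0.000877) and CAPN2, a calpain subunit of the protease family that cuts the IL1A precursor (0.17 ± 0.03, adjusted p = 1.7e-05). The lower genes were IRAK2 (-0.26 ± 0.03, adjusted p = 3.73e-08), IL18R1 (-0.28 ± 0.06, adjusted p = 0.000247), the NF-kB kinase IKBKB (-0.12 ± 0.03), the ubiquitin ligase subunit SHARPIN (-0.11 ± 0.03) and the TAK1 partner TAB1 (-0.09 ± 0.03). IL1R1, the ligand-binding chain that pairs with IL1RAP, differed by -0.03 ± 0.05 (adjusted p = 0.721). As a mean of 4 hours it was not called under IL1B in either arm, and neither were MYD88 and MAP3K7. Single hours are not given for these genes. No response difference of the 29 was called by limma as a mean of 4 hours, and 5 had an unadjusted p under 0.05, as had 10.3% of all probe sets.

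**Figure D4:**
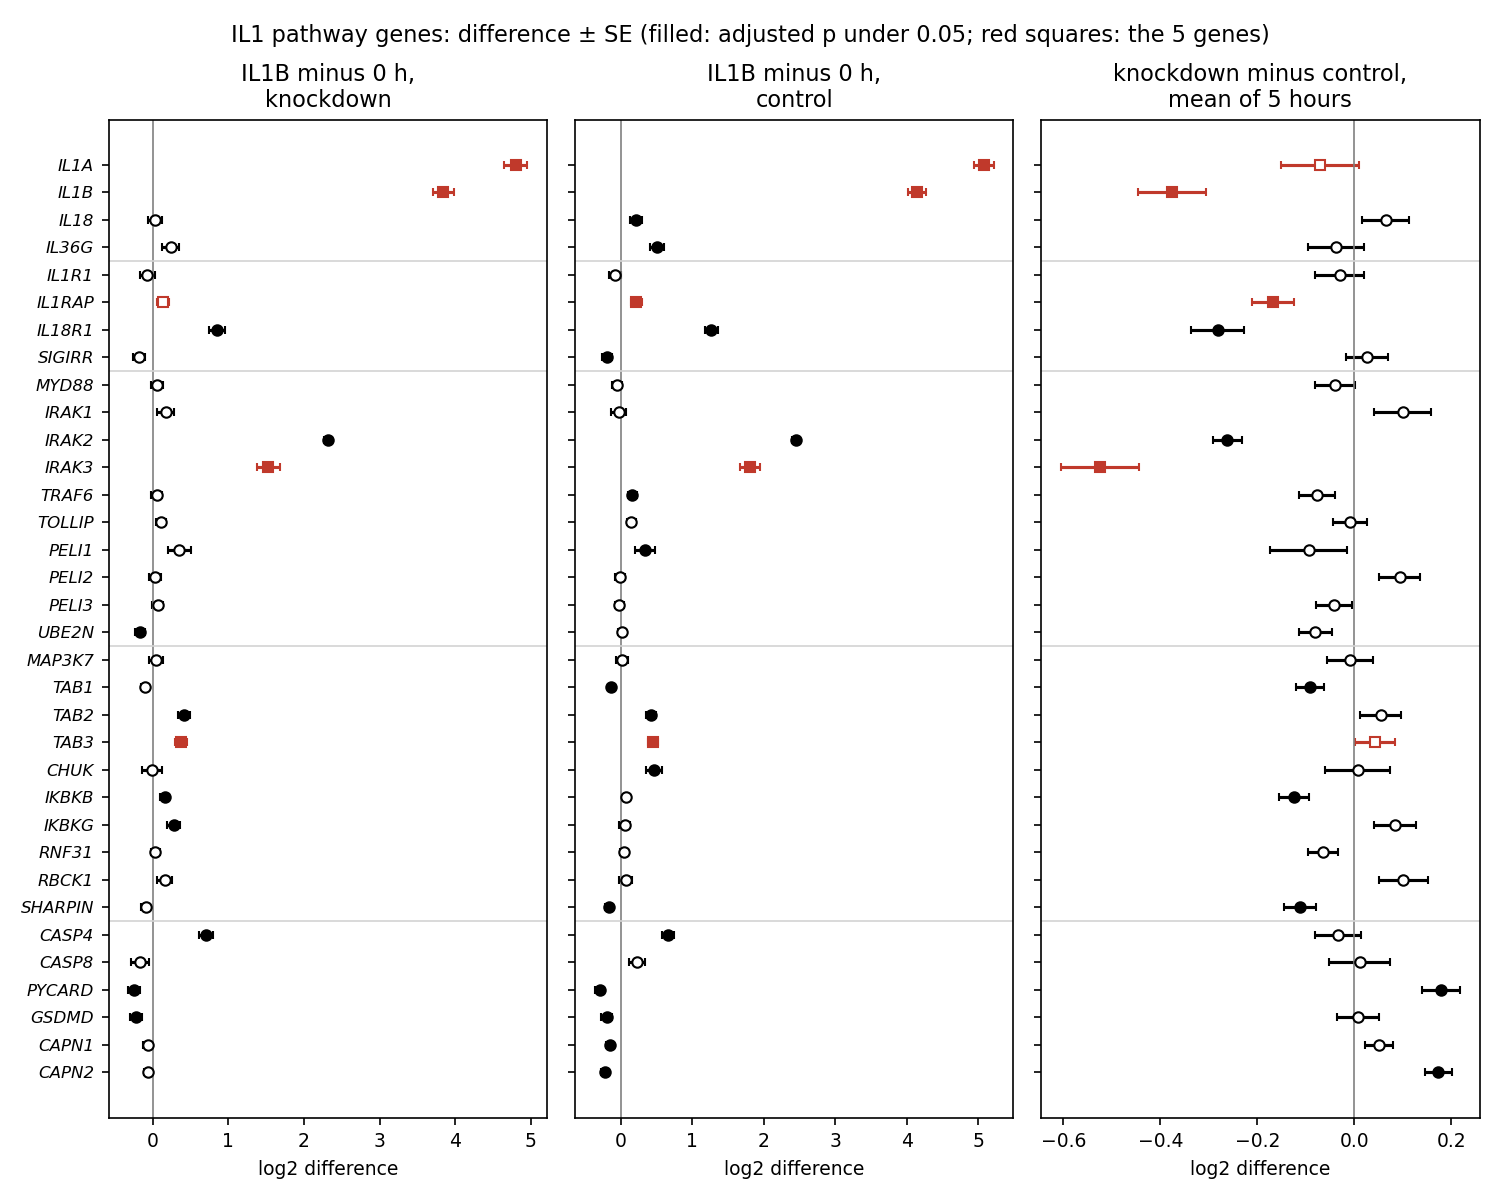
Log2 differences (limma, bars show the standard error, filled points have an adjusted p under 0.05, red squares are the 5 members) of the measured genes of the IL1 pathway lists, for the mean IL1B effect in ORMDL3 knockdown and control cells and for knockdown minus control over 5 hours. IRAK2 rose by 2.32 in knockdown cells and by 2.45 in control cells, and most genes of the lists lie near 0.

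The likeness of the members' profiles is given as Pearson's r over all 38 arrays, with no test, since arrays of a group share their treatment. How far the IL1B effect sets r was not tested. IL1A and IL1B had r = 0.978 with each other. IL1A was most like the chemokine gene CXCL3 (0.983), the phosphatase gene DUSP10 (0.982) and the growth factor gene CSF1 (0.982). IL1B was most like the adhesion molecule gene ICAM1 (0.989), the chemokine gene CCL20 (0.984) and TNFAIP2 (0.983). IRAK3 was most like LRP12 (0.941), BTG3 (0.940) and TNFAIP6 (0.935), and TAB3 was most like TRIM25 (0.894), SLMAP (0.885) and RAI14 (0.877). IL1RAP, whose values varied little, had lower values of r, with TMA16 (0.729), DESI2 (0.716) and RNF149 (0.690) the most like it.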

How the data were processed

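The deposited values are log2 expression levels per probe set, made by the authors with tools that the submitters' processing notes list without a role or order: RMA, Affymetrix Power Tools, the build hg19 and limma 3.22.7. No source used here says how the 14488 probe sets were chosen. No further normalization was applied. In the platform annotation 1 gene symbol stood beside 12132 probe sets, several beside 628 and none beside 1728, and 12121 of the 12132 were matched to gene records by Entrez identifier. The members and lists were chosen with earlier results of these data known.

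A model with 1 mean per group was fitted to all 38 arrays with limma 3.58.1 in R 4.3.3 and empirical Bayes moderation, which gave 32.5 moderated degrees of freedom. Each contrast's p-values had the Benjamini-Hochberg adjustment across the 14488 probe sets, and adjusted p-values in the text are from limma. Errors beside a difference are standard errors and errors beside a level are SDs. Beyond the members, the text names pathway genes from the lists, the 3 genes most like each member and the markers. Group and replicate number came from the labels. No detection or signal over background values were given, so it is not known whether the lowest levels stood above background. The number of arrays limits the precision. Same-numbered arrays of the arms deviated together in part: 11 of 18 pairs correlated above 0.1, over a range of -0.22 to 0.58. The correlation that limma estimated for a random replicate block was 0.14. The main fit had no replicate block and so left this pairing aside, and the calls that a block changed are given below. Alternatives were quantile normalization, subtracted array medians, a filter on dim probe sets, array weights, a fixed or random replicate block, fits of only the groups compared, and leaving out arrays. The scripts were tested on simulated data. Collections at 6 and 24 h, which the protocol names, are not analysed here. Promoter sequences are RefSeq's, from GRCh38.p14, a build other than hg19, and no probe set coordinates were used.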

Additional observations from a re-analysis of the deposited data

Results flagged for a closer look

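Of 40 groups of 4 arrays tested over the 5 members, 4 held 1 array far from the other 3, where chance alone gives about 1 in 20. IRAK3 in knockdown replicate 3 at 4 h read 6.57, against 6.05 to 6.07 on the other 3 arrays of its group. TAB3 in knockdown replicate 4 at 8 h read 10.09, against 9.85 to 9.87. IL1A in control replicate 2 at 4 h read 10.82, against 10.52 to 10.57. TAB3 in control replicate 2 at 10 h read 9.86, the low array of its group, against 10.02 to 10.04.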

How the results depend on the processing

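The numbers of probe sets called varied most. The IL1B effect in knockdown cells (4501 called) gave 2651 with a filter on dim probe sets, 6825 with array weights and 3209 to 4584 without single arrays. In control cells (5688) the filter gave 3304, and 4908 to 5765 were called without single arrays. Knockdown minus control (3332) gave 2178 with the filter and 2905 to 3615 without single arrays. The response difference (34) gave 18 with quantile normalization, 17 with array medians subtracted, 536 with array weights, 57 with a random replicate block, 22 without all arrays numbered 4 and 8 to 43 without single arrays. The cause was not tested, beyond fewer probe sets tested under the filter, which removed IL1B, IL1RAP and IRAK3. Fits of only the groups compared give no other value where all 10 groups enter.

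With the replicate number as a block, 5103, 6307, 3890 and 65 probe sets were called in these 4 comparisons, and 4, 5, 3 and 0 members were called over the hours, as without it. In that fit knockdown below control passed the threshold for IL1B at 4 h (adjusted p = 0.00311) and 10 h (0.00742) and IRAK3 at 10 h (0.0089), as did the IL1B effect on IL1RAP at 4 h in knockdown cells (0.0419) and at 8 h in control cells (0.0313). The block changed no other refitted call on the members, and the refits left out the steps between hours for IL1RAP and TAB3. With a random block, IL1B at 4 h (0.00955) and 10 h (0.0177) and IRAK3 at 10 h (0.0205) also passed for knockdown below control. IL1B at 4 h passed with quantile normalization (0.0421), IRAK3 at 2 h (0.047) and 10 h (0.0372) with array weights, and TAB3 at 2 h, higher in knockdown cells, without arrays numbered 4 (0.0413). The IRAK3 fall from 2 to 10 h in control cells passed with array weights (0.00733) and without arrays numbered 4 (0.0302), and the IL1B effect on TAB3 at 10 h in knockdown cells was lost with quantile normalization (0.0613).

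Over the hours, the mean IL1B effect on IL1RAP in control cells lay between 0.17 and 0.26 without single arrays, and 4 to 5 members were called there. Signs changed where differences were near 0. For knockdown minus control, IL1B at 2 h became -0.032 with array weights and -0.015 without arrays numbered 4, and TAB3 at 8 h became -0.00436 without those arrays. The response difference became 0.047 for IL1A at 2 h, 0.018 for IL1RAP at 8 h and 0.026 for IRAK3 at 2 h with quantile normalization. With array medians subtracted it became 0.029 for IL1RAP at 8 h, 0.00282 for IRAK3 at 2 h and 0.012 for TAB3 at 8 h. The difference between arms in the IRAK3 step from 2 to 10 h became 0.00296 without arrays numbered 4. Without single arrays, knockdown minus control ranged from -0.031 to 0.12 (IL1A, 2 h), -0.33 to 0.040 (IL1A, 10 h), -0.10 to 0.11 (IL1B, 2 h), -0.040 to 0.10 (TAB3, 4 h) and -0.00436 to 0.078 (TAB3, 8 h), the IL1B step from 2 to 4 h in knockdown cells from -0.12 to 0.075, and the response difference from -0.10 to 0.024, -0.080 to 0.025 and -0.082 to 0.027 (IL1RAP, 4, 8 and 10 h), -0.24 to 0.080 (IRAK3, 2 h) and -0.11 to 0.016 (TAB3, 8 h).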
